A study of Rattus norvegicus with 4 samples.

Results

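The DNA replication and mitosis machinery was followed here through 57 genes, 37 that copy DNA and 20 that separate the copied chromosomes. They are named subunits, enzymes and regulators of these processes, with kinesins, cyclins and cyclin-dependent kinases left out, and were matched by gene symbol to 57 of the 54532 rows of the deposited count table. Ear skin came from 2 rats of the SD (Sprague Dawley) strain. One ear of each rat received a control adeno-associated virus (AAV-control, genotype label wt), and the other received AAV-Fgf7 (genotype label Fgf7 overexpression). Tissue at the injection sites was taken on day 3 and gave 4 libraries, 2 per group, all carrying the batch label Day3. The labels give no age for the rats and no promoter or serotype for the virus. The series asks how fibroblast growth factor 7 delivery acts on re-epithelialization and wound healing. Values of the 4 libraries are given in the order control ear of rat 1, control ear of rat 2, AAV-Fgf7 ear of rat 1 and AAV-Fgf7 ear of rat 2.

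As background, DNA replication starts when the MCM ring, the replicative helicase, is loaded on origins and then activated by CDC45 and the GINS complex. Polymerases copy the opened strands while held by the PCNA clamp, and ribonucleotide reductase and thymidylate synthase supply the nucleotides. In mitosis, Polo and Aurora kinases, the spindle checkpoint and the kinetochore direct the spindle, which pulls the chromosomes apart before cytokinesis. In skin the dividing epithelial cells are chiefly basal keratinocytes of the epidermis and matrix cells of growing hair follicles. FGF7, or keratinocyte growth factor, is made by mesenchymal cells and signals to the epithelium by way of an epithelial splice variant of the receptor FGFR2.

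Library totals ranged from 1299136 to 1601321 counts. Fgf7, the delivered gene, checked the group labels, with 94, 110, 454 and 1429 counts. Its CPM (counts scaled by library total and a normalization factor) was 4.49 times the control ear's in the AAV-Fgf7 ear of rat 1 and 13.5 times in that of rat 2. Both AAV-Fgf7 samples' descriptions name the same column of the table, and the second treated column was given to rat 2 by its number and title, so ratios within a rat rest on that assignment. The titles and the series' design text give opposite ear sides, and side was not used. The rows carry mouse Ensembl identifiers although the animals are rats. Of 3 transcripts expressed in most cells, Gapdh had counts of 0, 0, 0 and 1, and Ppia and Gusb had 0 in every library. These 3 genes were chosen after their values were seen. A member listed at 0 is therefore not shown to lack transcript.

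Of the 57 members, 35 had a count in at least 1 library (61.4%), against 52.4% of 22046 protein-coding genes. The 22 members at 0 in all libraries were Aurka, Aurkb, Birc5, Cdc6, Cenpe, Cenpf, Chaf1a, Chaf1b, Ckap2, Dut, Fen1, Hmmr, Mcm10, Nusap1, Pola2, Prim2, Rfc2, Rfc5, Rpa2, Ttk, Ube2c and Uhrf1. A count of 0 in a library allows a level of up to 1.98 to 2.25 CPM, the level of 3 counts, for counting error only. The number of members with a count was 23, 21, 28 and 32. Only 16 members reached 20 counts over the 4 libraries, and 12 passed the low-count filter and were tested, 11 of replication and 1 of mitosis.

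No member passed the test between AAV-Fgf7 and control ears. All members together held 272, 215, 298 and 490 counts, or 204, 142, 208 and 335 CPM. The AAV-Fgf7 ear of rat 2 was the highest library and the control ear of rat 2 the lowest, while the 2 ears of rat 1 were nearly level. The ratio of AAV-Fgf7 to control was 1.02 within rat 1 and 2.37 within rat 2. With the AAV-Fgf7 library of rat 2 left out, the ratio of group means moved from 1.57 to 1.20. In bulk skin, more dividing cells and more transcript per cell cannot be told apart.

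**Figure D1:**
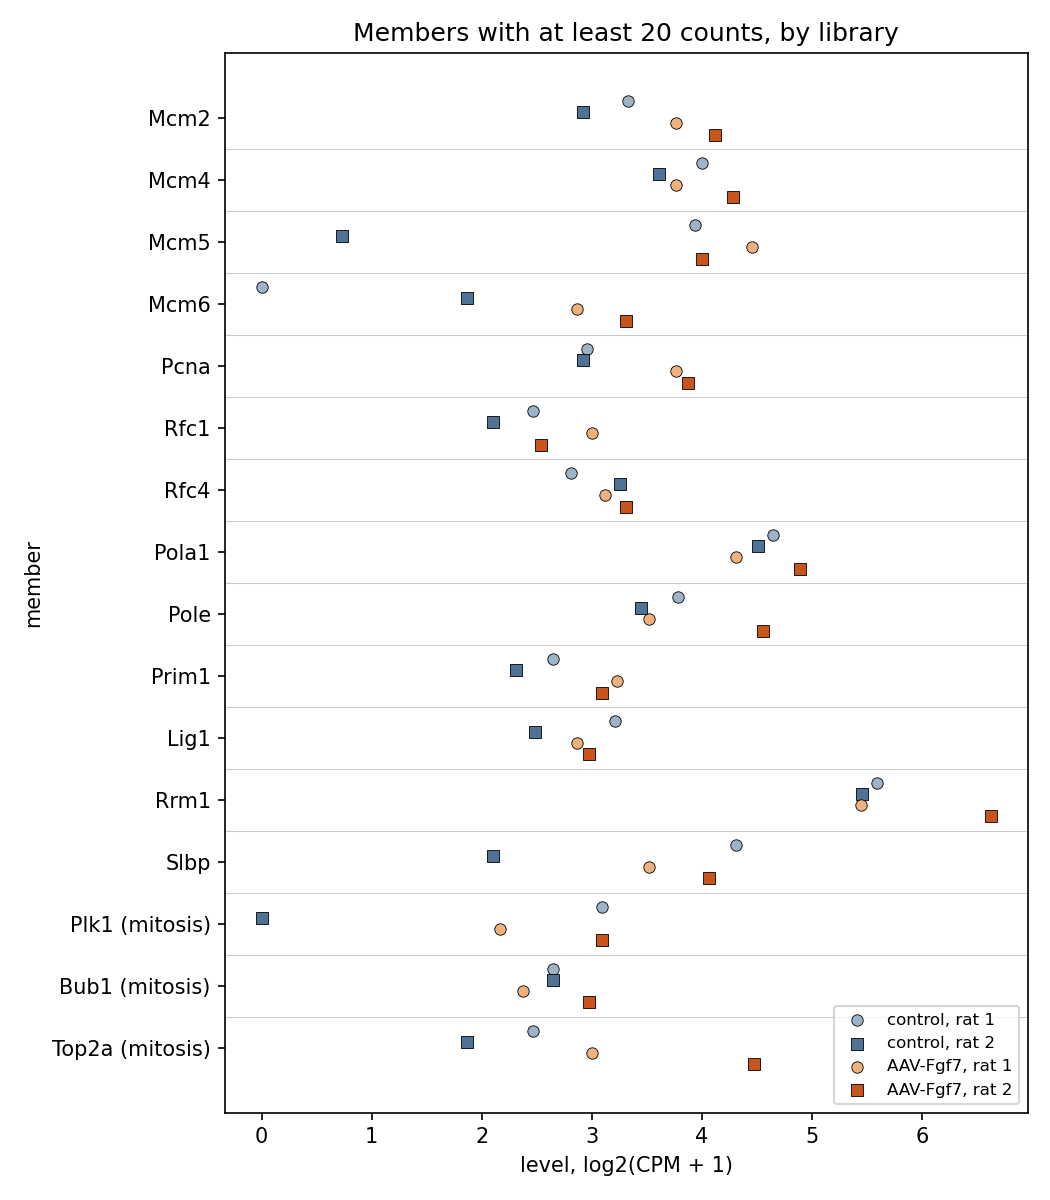
Level of each member with at least 20 counts, as log2(CPM + 1) on the horizontal axis, with 1 marker per library. Circles are rat 1, squares rat 2, blue the control ears and orange the AAV-Fgf7 ears. For Pcna, Mcm2, Mcm5, Mcm6, Rfc1, Prim1 and Top2a both orange markers lie to the right of both blue ones, while Rrm1 stands apart only in the AAV-Fgf7 ear of rat 2.

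The 37 replication members summed to 181, 132, 189 and 286 CPM, with exact 95% Poisson intervals, which cover counting error only, of 159 to 205, 115 to 152, 167 to 213 and 259 to 315. The 2 groups did not overlap, but the lower AAV-Fgf7 value and the higher control value lay within each other's interval. Group means were 157 ± 34.5 in control and 237 ± 68.9 in AAV-Fgf7 ears (SD, n = 2), a ratio of 1.51 that was 1.04 within rat 1 and 2.16 within rat 2. Leaving out the AAV-Fgf7 ear of rat 2 gave 1.20. The 20 mitosis members summed to 23.3, 9.22, 19.6 and 49.3 CPM, from only 31, 14, 28 and 72 counts. Here the groups overlapped, because the control ear of rat 1 exceeded the AAV-Fgf7 ear of the same rat. The means were 16.3 ± 9.95 and 34.4 ± 21.0 (SD, n = 2), a ratio of 2.12 that ran from 0.84 within rat 1 to 5.34 within rat 2. Leaving out the AAV-Fgf7 library of rat 2 gave 1.20 and leaving out the control library of rat 1 gave 3.73. With 2 libraries per group, an exact two-sided permutation test cannot go below p = 0.333, so these sums were not tested.

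**Figure D2:**
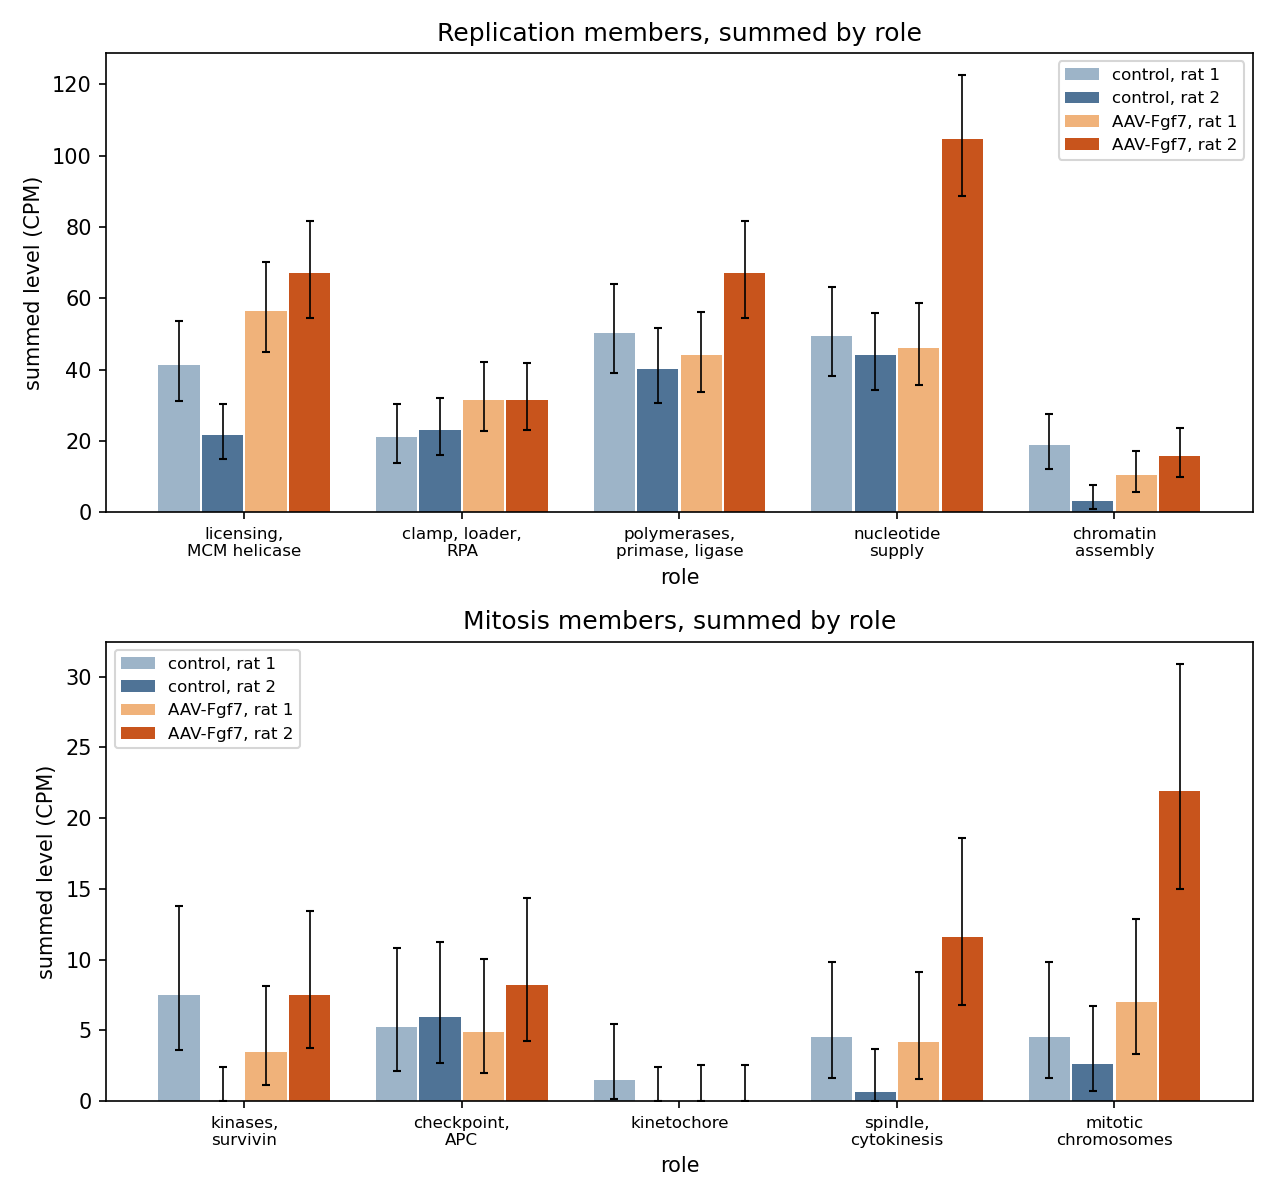
Summed CPM of the members of each role in each library, with exact 95% Poisson intervals that cover counting error only. The licensing and MCM sums (41.3, 21.7, 56.6 and 67.1 CPM) and the clamp, loader and RPA sums (21.0, 23.1, 31.4 and 31.5 CPM) are higher in both AAV-Fgf7 ears. So are the mitotic chromosome sums (4.51, 2.63, 6.99 and 21.9 CPM), which are nearly all Top2a, since Mki67 had 1 count. The groups overlap in the other roles, and nucleotide supply is high only in the AAV-Fgf7 ear of rat 2.

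The licensing and helicase members were higher in both AAV-Fgf7 ears than in both control ears as a sum, at 41.3, 21.7, 56.6 and 67.1 CPM. The ratio of means was 1.96, and it was 1.79 when the AAV-Fgf7 ear of rat 2 was left out. The ring subunit Mcm2 had 12, 10, 18 and 24 counts, a mean of 7.80 ± 1.72 CPM for control and of 14.5 ± 2.72 CPM for AAV-Fgf7 ears (SD, n = 2). The groups did not overlap, and edgeR's quasi-likelihood test gave a log2 fold change of 0.89 (SE 0.47, Benjamini-Hochberg adjusted p = 0.9996). Mcm5, another ring subunit (mouse ENSMUSG00000005410), had 19, 1, 30 and 22 counts. Its lowest library was the control ear of rat 2, and its log2 fold change of 1.30 (SE 0.97, edgeR adjusted p = 0.9996) ran from 0.33 without that library to 4.60 without the control library of rat 1. Mcm4 had 20, 17, 18 and 27 counts, with overlapping groups and a log2 fold change of 0.25 (SE 0.44). Mcm6, untested because it missed the filter, had 0, 4, 9 and 13 counts, so that both AAV-Fgf7 ears exceeded both controls. Mcm3 had 7 counts in all and Mcm7 had 3, both higher in the AAV-Fgf7 ears. A row for an Mcm7 pseudogene had 2, 0, 2 and 3 counts, and whether it shares reads with Mcm7 was not tested. The helicase activators were scarce: Gins1 had 4 counts and Cdc45 had 3, every one in the AAV-Fgf7 ear of rat 2, while Gins2 had 3, 1, 1 and 0. Cdt1, the loading factor, had 1 count.

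The sliding clamp, clamp loader and single-strand binding members also did not overlap as a sum, at 21.0, 23.1, 31.4 and 31.5 CPM, with a ratio of means of 1.43 whether or not the AAV-Fgf7 ear of rat 2 was included. Pcna, the clamp that tethers polymerases to DNA, accounted for much of this. Pcna had 9, 10, 18 and 20 counts, a mean of 6.67 ± 0.126 CPM for control and of 13.1 ± 0.785 CPM for AAV-Fgf7 ears (SD, n = 2). The groups did not overlap, but these SDs rest on 2 libraries per group with few counts each and do not measure counting error. The log2 fold change of 0.97 (SE 0.47) did not pass (edgeR adjusted p = 0.9996). Leaving out any 1 library kept it between 0.91 and 1.03. Pcna passed the low-count filter by its AAV-Fgf7 libraries alone, so these values describe a gene admitted for being high there and support nothing. Pcna is uncertain, since near-identical processed copies can share its reads: the row Pcna-ps2 had 6, 8, 6 and 12 counts, and both rows together had 15, 18, 24 and 32. The loader subunit Rfc4 had 8, 13, 11 and 13 counts (log2 fold change 0.18, SE 0.53) and Rfc1 had 6, 5, 10 and 7, which missed the filter. Rpa1 and Rpa3, which coat single-stranded DNA, had 16 and 6 counts in all with overlapping groups, and Rfc3 had 2.

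Among polymerases and the enzymes of lagging-strand synthesis, the summed CPM was 50.3, 40.2, 44.0 and 67.1, with overlapping groups. Pola1, the catalytic subunit that extends primers, had 32, 33, 27 and 42 counts and a log2 fold change of 0.06 (SE 0.38). Pole, the leading-strand polymerase, had 17, 15, 15 and 33 counts, high in 1 library. Prim1, the primase subunit, had 7, 6, 12 and 11 counts, so both AAV-Fgf7 ears exceeded both controls, with a log2 fold change of 0.78 (SE 0.56, edgeR adjusted p = 0.9996). Prim1 too passed the low-count filter by its AAV-Fgf7 libraries alone. Lig1, which seals nicks between Okazaki fragments, had 11, 7, 9 and 10 counts and a log2 fold change of 0.04 (SE 0.58). Pold1 had 2 counts.

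In nucleotide supply, Rrm1, the large subunit of ribonucleotide reductase, was the member with the most counts, at 63, 65, 61 and 143. The other libraries were alike and the AAV-Fgf7 ear of rat 2 held more than double any of them, giving a log2 fold change of 0.64 (SE 0.43, edgeR adjusted p = 0.9996). Without that library it was -0.08. Its partner subunit Rrm2 had 1, 0, 4 and 5 counts, and Tyms, thymidylate synthase, had 2, 2, 1 and 5. For chromatin assembly only Slbp, the histone messenger RNA binding protein, had counts, at 25, 5, 15 and 23. Its control libraries spanned 18.8 and 3.29 CPM, both above and below the AAV-Fgf7 values. Removing Rrm1 left the ratio of replication sums at 1.50.

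The mitosis members were fewer and lower. Of the kinase group only Plk1, which drives spindle assembly and mitotic exit, had counts, at 10, 0, 5 and 11. Its groups overlapped, with a log2 fold change of 0.60 (SE 1.23, edgeR adjusted p = 0.9996). Bub1, a checkpoint kinase, had 7, 8, 6 and 10 counts, whereas Bub1b had 1 count and Cdc20, the activator of the anaphase-promoting complex, had 0, 1, 1 and 1. Ndc80, the kinetochore protein, had 2, 0, 0 and 0. The cytokinesis proteins Anln and Prc1 had 6, 0, 4 and 6 and 0, 0, 1 and 9 counts, and the spindle protein Tpx2 had 0, 1, 1 and 2. Prc1, a midzone bundling protein, thus had nearly all of its counts in the AAV-Fgf7 ear of rat 2.

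Top2a, which untangles sister chromatids, had 6, 4, 10 and 31 counts, a mean of 3.57 ± 1.33 CPM for control and of 14.1 ± 10.1 CPM for AAV-Fgf7 ears (SD, n = 2). Both AAV-Fgf7 ears lay above both controls, and that of rat 2 lay far above the rest. Without Top2a the ratio of mitosis sums was 1.60. Mki67, the usual marker of cycling cells, had 1 count, so that this marker gave no comparison. In an edgeR fit without the filter, over all 35 members with a count, 3 reached an unadjusted p under 0.05: Top2a (log2 fold change 1.97, SE 0.69), Mcm6 (2.39, SE 0.97) and Prc1. None of them passed (edgeR adjusted p = 0.975 for each). Over all 12902 genes in that fit 2.28% reached it. Prc1 had counts in the AAV-Fgf7 ears alone and entered that fit only through them.

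**Figure D3:**
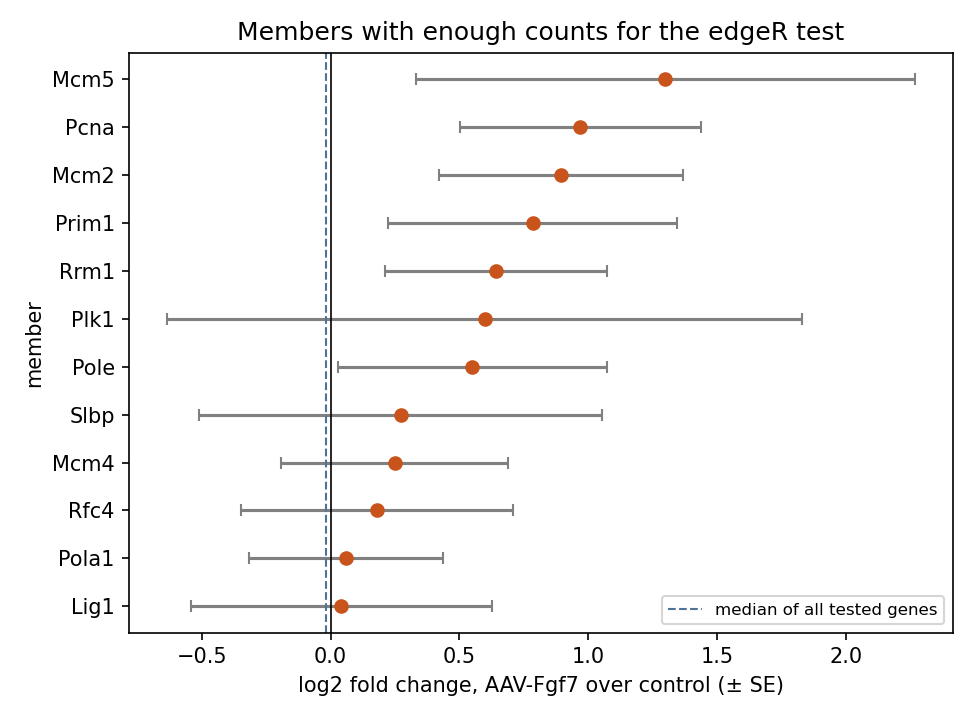
Log2 fold change (AAV-Fgf7 over control) of the 12 tested members on the horizontal axis, with bars of ± 1 SE from the edgeR fit and a dashed line at the median of all 6370 tested genes (-0.02). The 12 points lie above 0, from 0.04 for Lig1 to 1.30 for Mcm5, Pcna and Prim1 passed the filter by their AAV-Fgf7 libraries alone, and no member passed the test.

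The 12 tested members had log2 fold changes above 0, with a median of 0.57, against a median of -0.02 over all tested genes, of which 3042 of 6370 were above 0. Pcna and Prim1 passed the filter, about 7.02 CPM in 2 libraries, by their AAV-Fgf7 libraries alone, so the tally and the median are descriptions of the genes that passed and support nothing. The other 10 passed by libraries of both groups and had a median of 0.41. A filter on the mean count over all 4 libraries (at least 10) kept 10 members, also all above 0, with a median of 0.60. None of the 12 was called by edgeR, where 0% of 6370 genes passed an adjusted p of 0.05 and 2.32% had an unadjusted p under 0.05. DESeq2 called 0.0628% of genes and none of the members, and limma-voom called none of either. The number of members with an unadjusted p under 0.05 was 0 in each of these 3 tests. The direction rested on 1 library: the median fell to -0.04 when the AAV-Fgf7 ear of rat 2 was left out, and 7 of the 12 turned negative.

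Both AAV-Fgf7 ears lay above both controls for 4 of the 12 tested members (Mcm2, Mcm5, Pcna and Prim1), against 14.8% of all tested genes, of which Pcna and Prim1 passed the filter only by being high in the AAV-Fgf7 ears. Under the filter on the mean count it was 4 of 10 (Mcm2, Mcm5, Pcna and Top2a), against 14.6% of 6264 genes. Both lay below both controls for 0 of the 12, against 13.3%. Over members with a count, it was 13 of 35 above, against 13.5% of genes with a count, and the other 9 were Cdc20, Mcm3, Mcm6, Mcm7, Prc1, Rfc1, Rrm2, Top2a and Tpx2. Some of these 9 rest on very few counts. For Cdc20 (0, 1, 1 and 1 counts) and Tpx2 (0, 1, 1 and 2) only library scaling parted equal counts of 1. Mcm7 (3 counts in all) and Prc1 had counts in the AAV-Fgf7 ears alone, so they joined the members with a count only through those ears. The AAV-Fgf7 ear of rat 2 was the highest library for 22 of 35 members with a count, against 26.0% of genes with a count. That count was 15 of 25 among replication members and 7 of 10 among mitosis members. Cdt1, Cdc45, Gins1, Pold1, Bub1b and Mki67 had counts in the AAV-Fgf7 ear of rat 2 alone. For them, being highest there was fixed by having a count at all. The tallies over members with a count are descriptions and support nothing.

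Levels between genes were compared per length, as deposited FPKM averaged over the 4 libraries. Rrm1 (5.20 FPKM), Rfc4 (5.04), Pcna (4.09) and Mcm4 (3.96) were the highest, and Mcm5 (3.16), Pola1 (2.63) and Plk1 (2.09) followed. Rrm1 ran from 3.83 to 8.82 FPKM over the libraries and Rfc4 from 3.90 to 5.76, so the order of these neighbours is within their spread. Ring subunits loaded as equal partners were listed at unequal levels, with Mcm2 at 1.59 and Mcm6 at 0.946 FPKM against Mcm4 at 3.96. How much of each rat transcript is counted on the mouse gene models is not given, and its part in these differences was not tested.

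Promoters of some members are shown because the sequence words they hold differed between the replication and the mitosis genes. In each line the capitals mark copies of the word searched for, E2F words in the Mcm genes and CHR words (cell cycle genes homology region) in the others. The Mcm2 sequence also holds 2 CHR words, which are left in lower case. The promoters were picked for holding the word searched for before the start, so they do not stand for all members. Among mitosis members, Bub1 (31 counts) held no CHR word and Plk1 (26 counts) held it only after the start. Both were passed over for Anln and Prc1, which had fewer counts. The sequences are RefSeq promoters of rat assembly GRCr8, the 250 bases before the start of each gene, 5′ to 3′ on the gene's strand.
Mcm5, chr19:13488563-13488812 (+): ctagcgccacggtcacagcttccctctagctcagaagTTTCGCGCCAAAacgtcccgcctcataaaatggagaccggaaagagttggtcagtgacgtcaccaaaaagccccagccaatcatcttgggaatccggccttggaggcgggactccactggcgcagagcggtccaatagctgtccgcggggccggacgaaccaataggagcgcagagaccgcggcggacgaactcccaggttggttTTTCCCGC
Mcm2, chr4:122918095-122918344 (-): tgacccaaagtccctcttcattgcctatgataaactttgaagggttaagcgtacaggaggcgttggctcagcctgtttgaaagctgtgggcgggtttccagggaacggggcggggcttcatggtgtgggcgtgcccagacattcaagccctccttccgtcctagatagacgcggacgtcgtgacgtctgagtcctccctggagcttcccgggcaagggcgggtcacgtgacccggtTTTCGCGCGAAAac
Mcm6, chr13:42404353-42404602 (-): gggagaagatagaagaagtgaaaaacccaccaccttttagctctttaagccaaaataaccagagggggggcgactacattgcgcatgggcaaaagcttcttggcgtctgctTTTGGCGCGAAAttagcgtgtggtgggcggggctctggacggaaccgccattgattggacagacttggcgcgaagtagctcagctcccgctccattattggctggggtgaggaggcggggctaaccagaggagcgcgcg
Top2a, chr10:84473094-84473343 (-): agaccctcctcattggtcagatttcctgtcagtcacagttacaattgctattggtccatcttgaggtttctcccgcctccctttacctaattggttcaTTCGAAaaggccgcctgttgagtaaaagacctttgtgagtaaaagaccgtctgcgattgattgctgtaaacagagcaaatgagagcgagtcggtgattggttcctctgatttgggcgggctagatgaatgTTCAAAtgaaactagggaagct
Anln, chr8:29197514-29197763 (-): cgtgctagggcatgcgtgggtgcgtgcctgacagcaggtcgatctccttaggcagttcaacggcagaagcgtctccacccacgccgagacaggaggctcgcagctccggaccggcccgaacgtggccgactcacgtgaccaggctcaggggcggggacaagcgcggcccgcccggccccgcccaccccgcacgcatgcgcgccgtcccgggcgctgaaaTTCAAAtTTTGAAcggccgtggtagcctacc
Prc1, chr1:143659231-143659480 (+): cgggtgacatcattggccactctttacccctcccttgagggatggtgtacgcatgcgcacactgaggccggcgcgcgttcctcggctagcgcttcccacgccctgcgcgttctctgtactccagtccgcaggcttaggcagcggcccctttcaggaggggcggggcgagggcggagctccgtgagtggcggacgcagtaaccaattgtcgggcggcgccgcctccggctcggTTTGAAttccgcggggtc

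E2F factors regulate genes of DNA synthesis, and the DREAM and MuvB complexes bind CHR words in promoters of mitotic genes. The E2F words searched were TTTCCCGC, TTTCGCGC, TTTGCCGC and TTTGGCGC, and the CHR words TTTGAA and TTCGAA, on both strands of windows from 250 bases before to 50 after the start. Of the 57 members, 50 were matched, with 53 windows. An E2F word stood in 15 of 36 replication windows (41.7%) and in 0 of 17 mitosis windows, against 2.14% of all 33469 windows. A CHR word stood in 14 of 17 mitosis windows (82.4%) and in 6 of 36 replication windows (16.7%), against 19.7% of all windows. Among the further genes of the same processes described later, E2F words stood in 45.5% of 33 replication and 5.41% of 37 mitosis windows, and CHR words in 30.3% and 54.1%. CCAAT stood in 61.1% of replication and 70.6% of mitosis windows, against 37.5% of all.

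Within the printed promoters, Mcm5 holds E2F words that begin 213, 209 and 8 bases before the start, Mcm2 at 14 and 10 and Mcm6 at 139 and 135, with the nearby words overlapping on opposite strands. Top2a holds CHR words at 152 and 22, Anln at 31 and 24 and Prc1 at 18. Of the licensing and MCM windows, 7 of 10 held an E2F word. Rrm1 and Pcna had none. Both kinds of word stood in 4 replication genes, Mcm2 among them, and no E2F word overlapped a CHR word in any member. A match is a description of letters, and binding was not measured here.

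**Figure D4:**
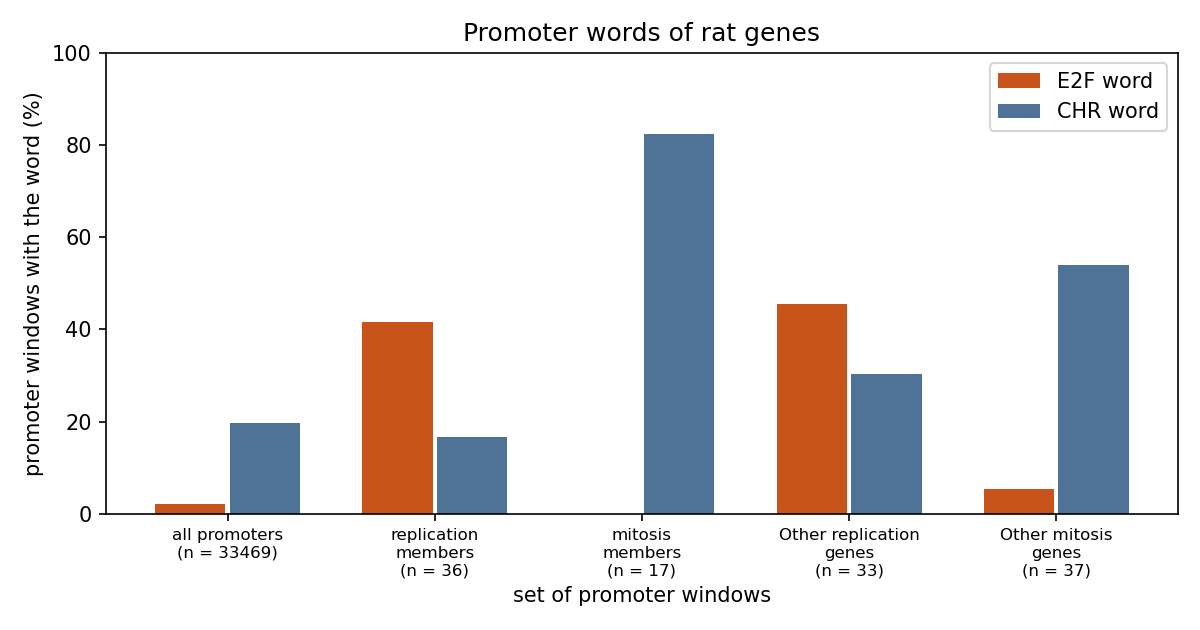
Percent of promoter windows that hold an E2F or CHR word. The sets are all windows, the replication members, the mitosis members and the further replication and mitosis genes described later. E2F words stand in 41.7% of replication windows and 0 mitosis windows, and CHR words in 82.4% of mitosis windows.

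Other genes of the same processes were read from lists of 98 further genes, of which 29 passed the filter. Their log2 fold changes were above 0 for 25 and below 0 for 4, with a median of 0.15, and none passed edgeR's test or had an unadjusted p under 0.05. Among 7 tested replication genes, the lowest p belonged to the histone chaperone Asf1b (log2 fold change 0.70, SE 0.55). Asf1b (7, 10, 17 and 11 counts) passed the low-count filter by its AAV-Fgf7 libraries alone. Its value and its place in the tally therefore support nothing. Next came the origin subunit Orc4 (0.52, SE 0.46), Top1 (0.16, SE 0.18) and Ssrp1 (0.11, SE 0.33). Among 14 tested mitosis genes the condensin subunits Smc4 and Smc2, which compact chromosomes, came first. Smc4 had 55, 45, 68 and 103 counts (log2 fold change 0.74, SE 0.34, edgeR adjusted p = 0.9996), and Smc2 had 37, 29, 42 and 66 (0.67, SE 0.39). Tubb5, a beta-tubulin, was at 0.60 (SE 0.53), and the cohesin subunit Smc3 at -0.39 (SE 0.43). Of 8 tested regulators, 7 were above 0, among them E2f4 (0.49, SE 0.35), Rbbp4 (0.25, SE 0.19) and Tfdp2 (0.29, SE 0.37), and Tfdp1, the dimer partner of E2F factors, was at -0.33 (SE 0.28).

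The libraries also differed in the tissue they held. Summed CPM of 8 basal keratinocyte markers was 1123, 948, 1474 and 3093, with every marker detected, and that of suprabasal markers was 966, 599, 882 and 2597, with Flg, Ivl and Sbsn at 0. The AAV-Fgf7 ear of rat 2 was thus highest in keratinocyte markers and in the member sums. Replication sums were 16.1%, 14.0%, 12.8% and 9.25% of the basal marker sum, lower in both AAV-Fgf7 ears, and mitosis sums were 2.07%, 0.973%, 1.33% and 1.59%, with overlapping groups. The hair follicle markers did not follow the members: their sum was 72.1, 1555, 4751 and 266 CPM, highest in the AAV-Fgf7 ear of rat 1, with Krt35 and Krt72 at 0. Skeletal muscle markers summed to 13756, 55664, 29673 and 14410 CPM and cartilage markers to 421, 1422, 739 and 401, both highest in the control ear of rat 2, where the members were lowest. Leukocyte markers summed to 259, 119, 161 and 188 CPM, with Cd3e, Cd4, Cd8a, Cd79a, S100a8 and S100a9 at 0. Dermal fibroblast markers summed to 27063 to 39650 CPM, with Dcn and Lum at 0, and endothelial markers to 103 to 127 CPM. The part of tissue makeup in the member values was not tested.

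**Figure D5:**
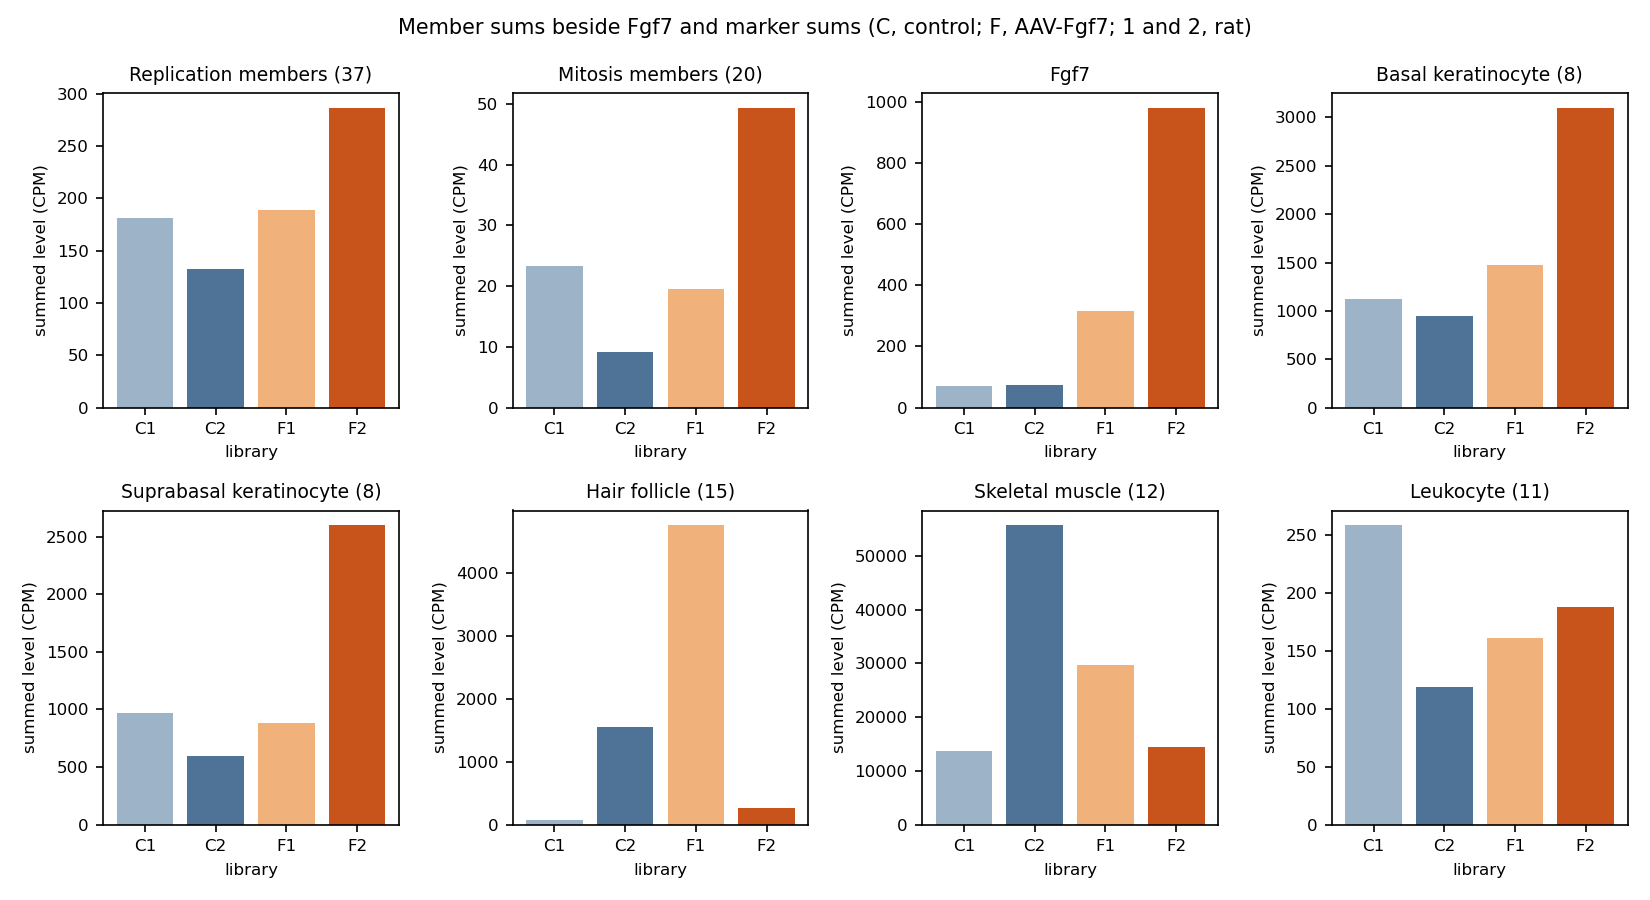
Summed CPM of the replication members, the mitosis members and marker lists in the 4 libraries, C1 and C2 for the control ears and F1 and F2 for the AAV-Fgf7 ears of rats 1 and 2. The AAV-Fgf7 ear of rat 2 is highest for both member sums and for basal keratinocyte markers (3093 CPM), while hair follicle markers peak in the AAV-Fgf7 ear of rat 1 (4751 CPM).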

How the data were processed

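The authors deposited raw read counts per gene and FPKM values (counts scaled by gene length and library) for 4 libraries. Within a library FPKM equalled count over listed length times 1 constant (largest relative difference 5.1e-15). Rnor_6.0 (rn6) is named per the submitters' processing notes, but identifiers and coordinates are those of mouse genes. The aligner and counter stay unnamed (not given in the sources used here). RNA was either poly(A)-selected or depleted of ribosomal RNA, and the labels' protocols do not say which.

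Counts were tested with edgeR 4.0.16 in R 4.3.3 (quasi-likelihood F test, two-sided, TMM factors, filterByExpr by group, Benjamini-Hochberg over 6370 genes), on group alone. SE is the absolute log2 fold change over root F. DESeq2 1.42.0, limma 3.58.1, other scalings and filters, FPKM with pseudocounts of 1 and 0.1, the rat as block and leaving out each library were alternatives. The same rat gave both ears per the labels' titles, which pairs the libraries by animal. Deviations from group means of same-rat libraries correlated at r = -0.30 over 6370 genes. P-values measure only the spread between these samples.

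Counts per library are given for members with at least 20 counts, and for scarcer ones where a role is described. Up to 4 genes of lowest p were named per pathway list. Members and lists were chosen with earlier results of these data known.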

Additional observations from a re-analysis of the deposited data

How the results depend on the processing

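No member was called in any of the alternatives run. Over all genes the count of calls was 0 with edgeR, 4 with DESeq2 and 3 without a filter, and 0 to 19 when each library was left out, 19 without the control library of rat 1. Members with both AAV-Fgf7 ears above both controls numbered 4 of 12 tested and 13 of 35 without a filter, which only admits more members. With the rat as replicate block 0 genes and 0 members were called, the member median was 0.53, and the block changed no call. With crossed pairs, an alternative chosen after seeing the data like the sums without Rrm1 or Top2a, 0 genes were called. Leaving out each library gave a median of tested members from -0.04 to 0.86, a replication ratio from 1.20 to 1.83 and a mitosis ratio from 1.20 to 3.73. A lone remaining library is then assumed to vary like the other group. Log2 fold changes turned negative only when a library was left out: Rfc4 ran from -0.044 to 0.46, Pola1 from -0.28 to 0.34, Lig1 from -0.33 to 0.50, Slbp from -0.51 to 1.97, Plk1 from -0.44 to 6.04, Mcm4 from -0.056 to 0.50, Pole from -0.11 to 1.00 and Rrm1 from -0.080 to 1.12. At this depth 16 of the 57 members had at least 20 counts, and the reason for the 22 without a count was not tested.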
